A study of Homo sapiens with 6 samples.

Results

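The genes described are 10 genes of the Notch pathway, chosen by symbol from a table of 23368 gene symbols: the receptors NOTCH1, NOTCH2 and NOTCH3, the ligands JAG1, JAG2 and DLL1, the DNA-binding factor RBPJ with its coactivator MAML2, and the target genes HES1 and HEY1. All 10 had a row in the table, and 9 passed the filter on low counts; DLL1 did not. RNA-seq counts came from 6 libraries of MDA-MB231 cells, an established triple-negative breast cancer line grown in medium with 10% serum. The cells had been transfected with siL1 or siL2, which are 2 different siRNAs against LSD1, or with a control siRNA (siControl), in 2 libraries each. LSD1 is a histone lysine demethylase encoded by KDM1A. Whether the 2 libraries of a group were grown as separate cultures is not given, and the p-values therefore reflect the variation among these libraries alone, which may be technical.

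Notch receptors are membrane proteins that are cut when a Jagged or Delta ligand on a neighbouring cell binds them. The freed intracellular part enters the nucleus and joins RBPJ and a Mastermind-like coactivator, which turns genes of the HES and HEY families on. Without it RBPJ sits with corepressors at the same genes. LSD1 has been found in such repressor complexes, and in T-cell leukaemia also with activated NOTCH1. In breast cancer, Notch ligands and receptors are studied for their part in invasion and in stem-like cells.

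Library totals were 22047738 to 26765079 counts, so that 3 counts, taken as the upper limit for a gene with none, equalled 0.112 to 0.136 CPM (counts per 1000000 counts of the library). KDM1A stood in the siL1 libraries at 27.7 and 28.1 CPM and in the siL2 libraries at 17.4 and 18.1 CPM, against 158 and 165 CPM with siControl. Among 12 markers of the line, VIM and CD44 were abundant. ESR1, PGR and CDH1 were each at or under the limit of a zero count on average in all groups. With siControl, ANXA1 and CAV1 averaged 1077 and 958 CPM, and KRT18, KRT8, ERBB2, EPCAM and GATA3 265, 237, 57.0, 11.5 and 2.68 CPM. Of the 9 markers of the line that were tested, 2 rose and 4 fell with siL1, and 3 rose and 3 fell with siL2. Of 8 endothelial markers 4 were tested; 3 rose and 0 fell with siL1, and 2 rose and 0 fell with siL2, while ERG had 0 counts in all libraries. Their summed level was 227 and 234 CPM with siL1, 211 and 216 CPM with siL2, and 192 and 193 CPM with siControl, nearly all of it TIE1. Of 8 fibroblast and mural markers 5 were tested, of which 2 rose with siL1 and 3 with siL2; DCN and LUM were at 0, and the sum was 20.1 to 26.7 CPM in the 4 LSD1 siRNA libraries, against 12.1 and 12.8 CPM with siControl. Of 8 blood cell markers only CD68 was tested. It rose with siL2 by a log2 fold change of 0.31 and did not pass with siL1. The summed level was 223 and 207 CPM with siL1, 269 and 272 CPM with siL2, and 213 and 223 CPM with siControl, nearly all of it CD68. MS4A1 and HBB had 0 counts. Beside these marker counts, 24.7% of all 13322 genes tested rose and 25.7% fell with siL1, at an adjusted p under 0.05. With siL2, 22.6% of all genes tested rose and 23.3% fell. The part of the cell type markers in the Notch results was not tested. In bulk RNA, fewer cells making a transcript and less of it per cell cannot be told apart.

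The Notch genes spanned a wide range of levels. Because long transcripts gather more reads, levels between genes are compared as CPM per kb of exon, with exon lengths from GENCODE v29. With siControl, RBPJ was highest at 33.0 ± 0.150 CPM per kb (SD, n = 2), followed by NOTCH2 at 14.2 ± 1.22, NOTCH1 at 5.48 ± 0.863 and HES1 at 4.10 ± 0.722. Both NOTCH1 values (6.09 and 4.87) lay above both HES1 values (3.59 and 4.61), but differences between genes were not tested. MAML2 followed at 2.18 ± 0.215 CPM per kb, JAG1 at 1.3 ± 0.0565, JAG2 at 0.884 ± 0.102, HEY1 at 0.477 ± 0.0473 and NOTCH3 at 0.277 ± 0.0294. DLL1 was last at 0.0476 ± 0.0269 CPM per kb.

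The order of the upper 5 genes by mean was the same with siL1 and siL2 as with siControl. With siL1, JAG2 averaged 1.55 ± 0.263 CPM per kb and JAG1 1.32 ± 0.0844 (SD, n = 2 each), so that the mean order of the Jagged genes was the other way round than with siControl, but the libraries overlapped. NOTCH3, at 0.525 ± 0.0142 CPM per kb with siL1, was level with HEY1 at 0.516 ± 0.0173. The exon lengths come from another annotation than the one used for counting, so that small differences between genes on this scale are uncertain.

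**Figure D1:**
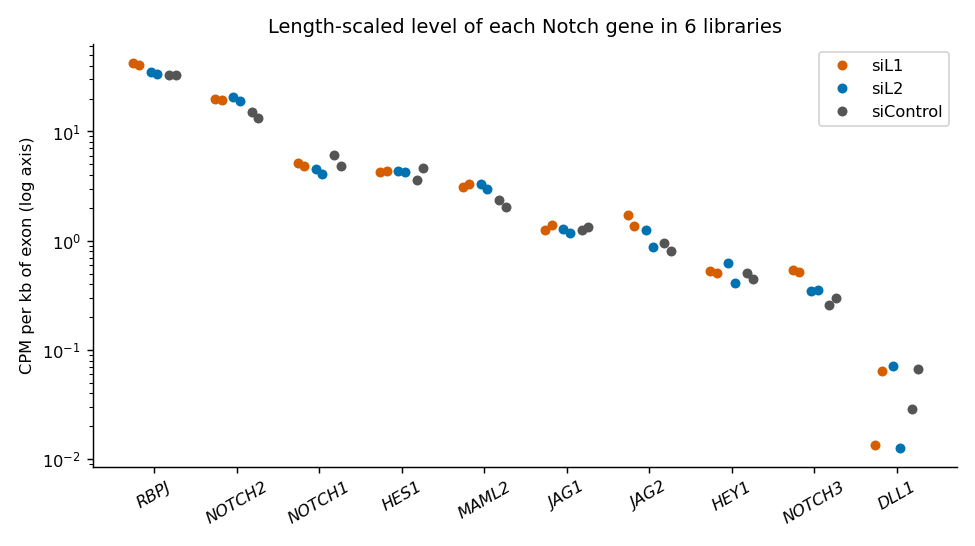
CPM per kb of exon on a log axis for 10 Notch genes, ordered by their siControl mean; each point is 1 library of siL1, siL2 or siControl. RBPJ and NOTCH2 stand above all other members, and DLL1 lies near the limit of a zero count.

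The comparison of each siRNA with siControl asked how the Notch genes ran when LSD1 was depleted. With siL1, 5 of 9 tested members rose and 0 fell, where a call is an adjusted p under 0.05 in edgeR's quasi-likelihood test over 13322 genes. Over all genes tested, 50.4% were called with siL1, 24.7% higher and 25.7% lower. The members that rose were NOTCH2, NOTCH3, JAG2, RBPJ and MAML2, and the median log2 fold change over the 9 members was 0.34, beside -0.01 over all genes. With siL2, 2 of 9 members rose (NOTCH2 and MAML2) and 1 fell (NOTCH1), where 45.8% of all genes were called, 22.6% higher and 23.3% lower. The median over the members was 0.12 with siL2, beside -0.0036 over all genes. The shares of members called, 55.6% with siL1 and 33.3% with siL2, were near or below those of all genes. Both comparisons share the siControl libraries.

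**Figure D2:**
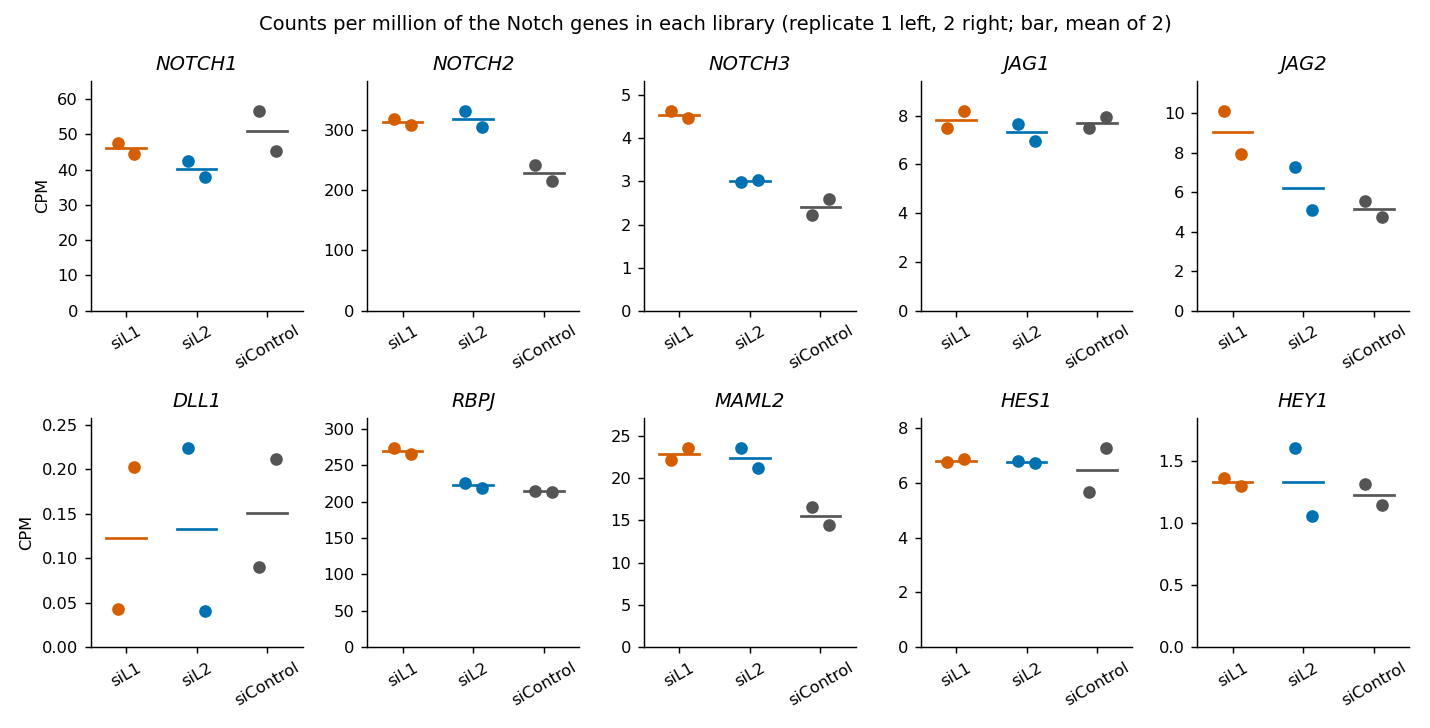
CPM of 10 Notch genes in the libraries of siL1, siL2 and siControl; points are libraries and bars are means of 2. NOTCH2 and MAML2 are higher in all 4 LSD1 siRNA libraries than in both siControl libraries, whereas NOTCH3, JAG2 and RBPJ are highest with siL1.

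Among the receptors, NOTCH2 was higher with both siRNAs. It had 319 and 309 CPM with siL1, and in the siL2 libraries 332 and 305 CPM, against 242 and 215 CPM with siControl. All 4 libraries with an LSD1 siRNA lay above both control libraries. NOTCH2 rose with siL1 by a log2 fold change of 0.46 (SE 0.0550, adjusted p = 1.79e-05) and by 0.47 with siL2 (SE 0.0549, adjusted p = 1.6e-05). The siL2 libraries did not differ from the siL1 libraries beyond their spread, with a log2 difference of 0.01 and a 95% interval of -0.11 to 0.13. NOTCH2NL, a partial copy of NOTCH2 in the human genome that the table counts apart, had 12.5 and 15.4 CPM with siL1, and in the siL2 libraries 14.0 and 13.6 CPM, against 12.3 and 13.4 CPM with siControl, and passed in neither comparison. Reads that fit both genes cannot be followed in a table of counts per symbol, so the NOTCH2 value is uncertain to that extent.

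NOTCH3, which is both a receptor and a target of Notch signalling, was a low transcript that was highest with siL1. It had 4.64 and 4.46 CPM with siL1 (109 and 110 counts), 2.99 and 3.04 CPM with siL2 (80 and 75 counts), and 2.22 and 2.58 CPM with siControl (49 and 61 counts). The 3 groups did not overlap. NOTCH3 rose with siL1 by 0.92 on the log2 scale (SE 0.167, adjusted p = 0.000521). With siL2 its log2 fold change was 0.32, with a 95% interval of -0.06 to 0.70 (adjusted p = 0.16). The siL2 libraries were lower than the siL1 libraries by a tested log2 difference of -0.60 (SE 0.156, adjusted p = 0.00687), which did not pass with DESeq2 (adjusted p = 0.0765; 0.000884 to 0.0382 under the other alternatives).

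NOTCH1 was the one receptor with lower values. It had 47.7 and 44.6 CPM with siL1, and in the siL2 libraries 42.6 and 37.9 CPM, against 56.6 and 45.3 CPM with siControl. Both siL2 libraries were below both control libraries, whereas the siL1 libraries overlapped with the controls. NOTCH1 fell by 0.34 on the log2 scale with siL2 (SE 0.0928, adjusted p = 0.00869). That call rested on single libraries: it ended without siControl replicate 1 (log2 fold change -0.17, adjusted p = 0.127) and without siL2 replicate 2 (-0.27, adjusted p = 0.0514), and adjusted p ran from 0.000378 to 0.127 over the libraries left out. The authors' deposited table gives a fold change of 0.787 for NOTCH1 with siL2 and an adjusted p of 0.229. With siL1 the log2 fold change was -0.14, with a 95% interval of -0.34 to 0.06 (adjusted p = 0.235). It was 0.03 without siControl replicate 1 and passed without siControl replicate 2 (-0.30, adjusted p = 0.0115).

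Of the ligands, JAG2 rose with siL1 and JAG1 passed with neither siRNA. JAG2 had 10.1 and 7.95 CPM with siL1, and in the siL2 libraries 7.29 and 5.11 CPM, against 5.58 and 4.74 CPM with siControl. Both siL1 libraries lay above the controls and above both siL2 libraries, and the siL2 libraries overlapped with the controls. JAG2 rose with siL1 by a log2 fold change of 0.81 (SE 0.178, adjusted p = 0.00201). With siL2 the log2 fold change was 0.27 (95% interval -0.13 to 0.67, adjusted p = 0.259), and it depended on the library: it was -0.01 without siL2 replicate 1, and 0.49 without siL2 replicate 2, where it passed (adjusted p = 0.0414). The siL2 libraries were lower than the siL1 libraries (log2 difference -0.54, SE 0.169, adjusted p = 0.0182). This difference did not pass without siL1 replicate 1 (-0.37, adjusted p = 0.172) or without siL2 replicate 2 (-0.32, adjusted p = 0.155), in a range of adjusted p from 0.00204 to 0.172 over the libraries left out.

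JAG1, the Jagged ligand most studied in breast cancer, had 7.49 and 8.19 CPM with siL1, and in the siL2 libraries 7.66 and 6.98 CPM, against 7.48 and 7.96 CPM with siControl. All 3 groups overlapped. Its log2 fold change was 0.03 with siL1 (95% interval -0.23 to 0.29, adjusted p = 0.87) and -0.08 with siL2 (-0.34 to 0.18, adjusted p = 0.62). DLL1, a Delta ligand, had 1 and 5 counts with siL1 and 6 and 1 counts with siL2, against 2 and 5 counts with siControl. These counts lie around the limit that a count of 0 allows, and a difference was not detectable at this depth.

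In the nucleus, RBPJ rose with siL1 and its coactivator MAML2 with both siRNAs. RBPJ had 274 and 265 CPM with siL1, and in the siL2 libraries 225 and 219 CPM, against 215 and 213 CPM with siControl. The siL1 libraries stood apart from the other 4, and the siL2 libraries lay just above the controls. RBPJ rose with siL1 by a log2 fold change of 0.34 (SE 0.0372, adjusted p = 9.83e-06). With siL2 its log2 fold change was 0.05 (95% interval -0.03 to 0.13, adjusted p = 0.301). The siL2 libraries were lower than the siL1 libraries by a log2 difference of -0.29 (SE 0.0369, adjusted p = 4.24e-05).

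MAML2, of the Mastermind-like family that bridges the Notch and RBPJ complex to histone acetylases, had 22.2 and 23.6 CPM with siL1, and in the siL2 libraries 23.5 and 21.2 CPM, against 16.6 and 14.4 CPM with siControl. All 4 libraries with an LSD1 siRNA were above the controls. It rose with siL1 by a log2 fold change of 0.57 (SE 0.0943, adjusted p = 0.000275) and by 0.53 with siL2 (SE 0.0938, adjusted p = 0.000532). Between siL2 and siL1 the log2 difference was -0.04, with a 95% interval of -0.23 to 0.15.

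The target genes HES1 and HEY1, whose products are transcriptional repressors, passed in no comparison. HES1 had 6.76 and 6.86 CPM with siL1, and in the siL2 libraries 6.80 and 6.74 CPM, against 5.67 and 7.28 CPM with siControl. The 4 values with an LSD1 siRNA lay between the 2 control values. Its log2 fold change was 0.07 with siL1 (95% interval -0.23 to 0.37, adjusted p = 0.687) and 0.06 with siL2 (-0.24 to 0.35, adjusted p = 0.769). HEY1 had 32 and 32 counts with siL1 and 43 and 26 counts with siL2, against 29 and 27 counts with siControl. At that depth its interval was wide, from -0.48 to 0.72 on the log2 scale with siL1 and from -0.47 to 0.72 with siL2.

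**Figure D3:**
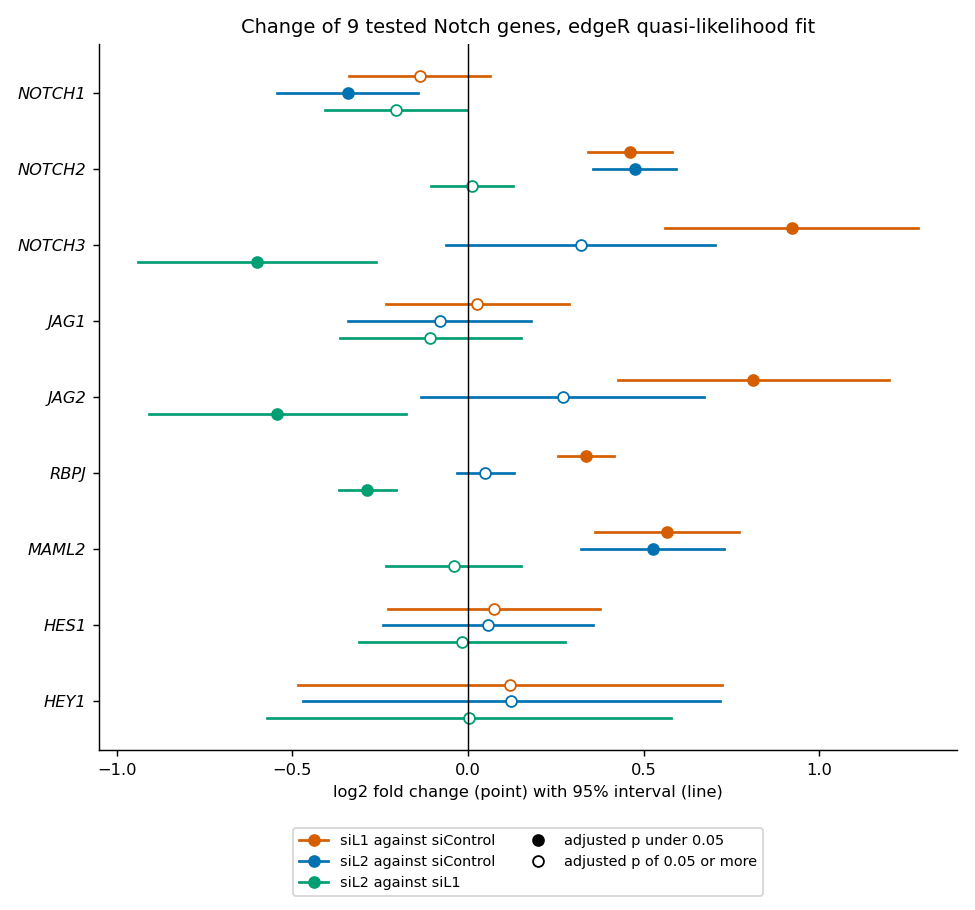
Log2 fold change of 9 tested Notch genes (points) with 95% intervals (lines) for siL1 against siControl, siL2 against siControl and siL2 against siL1; filled points have an adjusted p under 0.05. NOTCH2 and MAML2 lie at 0.46 to 0.57 with both siRNAs. For siL2 against siL1, the intervals of RBPJ, NOTCH3, JAG2 and NOTCH1 lie below 0, but the NOTCH1 point is open.

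The comparison of siL2 with siL1 tested the difference between the siRNAs directly. The control libraries entered only through the filter on low counts, the scaling and the estimate of the spread. Of 9 members, 0 were higher and 3 were lower with siL2 (RBPJ, NOTCH3 and JAG2), where 46.8% of all genes were called, 23.2% higher and 23.7% lower. The median log2 difference over the members was -0.11, beside 0.00019 over all genes. For NOTCH1 it was -0.21 with a 95% interval of -0.41 to -0.0032, and the adjusted p was 0.089; it passed when siControl replicate 1, siControl replicate 2 or siL2 replicate 1 was left out, at adjusted p from 0.0279 to 0.0415, with no filter on low counts (0.028) and with only the siL2 and siL1 libraries in the fit (0.0289). For JAG1, HES1 and HEY1 the intervals were -0.37 to 0.15, -0.31 to 0.28 and -0.57 to 0.58.

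Promoter windows are shown for HES1, the textbook RBPJ target, for RBPJ, and for NOTCH2 and MAML2, which were higher with both siRNAs. Each window runs from 250 bases before to 50 bases after a RefSeq transcript start on GRCh38.p14, is written 5′ to 3′ along the gene's strand, and was searched for TGGGAA, the core of the RBPJ motif, on both strands; matches are in capitals. The HES1 window is chr3:194135898-194136197 on the plus strand, the RBPJ window is chr4:26319496-26319795 on the plus strand, the NOTCH2 window is chr1:120069613-120069912 on the minus strand and the MAML2 window is chr11:96343146-96343445 on the minus strand.
HES1: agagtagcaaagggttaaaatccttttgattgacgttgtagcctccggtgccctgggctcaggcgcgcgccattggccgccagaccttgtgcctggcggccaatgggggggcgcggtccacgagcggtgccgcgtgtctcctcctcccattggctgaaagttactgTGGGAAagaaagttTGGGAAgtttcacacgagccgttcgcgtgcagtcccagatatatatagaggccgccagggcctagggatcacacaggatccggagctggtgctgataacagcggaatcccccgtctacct
RBPJ: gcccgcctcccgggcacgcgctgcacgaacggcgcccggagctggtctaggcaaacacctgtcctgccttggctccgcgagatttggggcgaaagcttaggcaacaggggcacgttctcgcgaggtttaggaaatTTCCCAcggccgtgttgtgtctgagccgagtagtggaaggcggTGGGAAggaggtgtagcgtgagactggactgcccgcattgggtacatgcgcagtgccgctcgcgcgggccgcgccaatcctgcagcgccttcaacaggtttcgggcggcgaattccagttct
NOTCH2: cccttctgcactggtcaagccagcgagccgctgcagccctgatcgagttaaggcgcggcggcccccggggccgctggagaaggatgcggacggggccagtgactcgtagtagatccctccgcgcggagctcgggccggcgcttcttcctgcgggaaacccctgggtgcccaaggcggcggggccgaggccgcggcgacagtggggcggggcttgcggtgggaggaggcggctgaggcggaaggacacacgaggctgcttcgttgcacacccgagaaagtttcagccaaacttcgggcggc
MAML2: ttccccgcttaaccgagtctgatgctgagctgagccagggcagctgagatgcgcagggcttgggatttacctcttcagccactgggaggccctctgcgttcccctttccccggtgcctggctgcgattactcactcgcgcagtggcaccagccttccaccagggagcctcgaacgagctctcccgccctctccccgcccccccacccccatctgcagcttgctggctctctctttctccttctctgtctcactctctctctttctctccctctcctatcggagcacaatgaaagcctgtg

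HES1 carried 2 matches, which begin 84 and 70 bases before the start, both on the gene's strand. The RBPJ window shown carried 2, while the other RBPJ windows, not shown, held none. The match 115 bases before the start lies on the opposite strand and the match 72 bases before on the gene's strand. Of 35116 windows in RefSeq, 24.0% held at least 1 match and 3.80% held 2 or more. In all, 8 members had 12 windows, 5 of them for RBPJ, and 2 of the 12 held the motif. The windows of NOTCH1, NOTCH2, NOTCH3, JAG1, JAG2 and MAML2 held none, which says only that these letters are not in these windows. A match is a description of the sequence, and binding was not measured here.

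3' UTR sites are shown because 7-base words in the 3' UTR went with the direction of change in an earlier scan of these same libraries, so that the words are no independent evidence. Among 11378 tested genes with a 3' UTR of at least 50 bases in GENCODE v29, 26.9% held TACATTT and 22.2% ACATTTA, words that overlap by 6 bases. The median log2 fold change of genes with TACATTT was 0.06 with siL1 and 0.06 with siL2, against -0.02 with siL1 and -0.02 with siL2 in genes without it. GTTACAA was in 9.47% of genes, which had a median of -0.12 with siL2, against 0.005 in genes without it; with siL1 the median was 0.026 in genes with it and -0.0069 in genes without. ACAGAGC was in 17.8%, with a median of -0.02 with siL1, against 0.0012 in genes without it; with siL2 the median was 0.0013 in genes with it and -0.0046 in genes without. The siRNA sequences were not used here.

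NOTCH2 and MAML2 held none of the 4 words in their longest 3' UTRs of 3895 and 2353 bases, and NOTCH1, JAG1, JAG2, DLL1 and HES1 held none either. NOTCH3 held TACATTT 2 times and RBPJ 3 times, 1 of them running on into ACATTTA, and both genes were highest with siL1. JAG2, which was also highest with siL1, is among the genes that held none. Between siL2 and siL1, the median log2 difference was -0.0034 in genes with TACATTT and -0.0122 in genes without it. HEY1 held ACATTTA 1 time and passed in no comparison. The part of these words in the changes of NOTCH3 and RBPJ was not tested. The sites are given 5′ to 3′ with the word in capitals and with the position of its first base in the 3′ UTR.
NOTCH3, position 358: tttttttttTACATTTtgtatagaa
NOTCH3, position 1131: tggggtaaaTACATTTgacttgcca
RBPJ, position 416: agtaaaaggTACATTTtcaccatac
RBPJ, position 1621: tcattgggcTACATTTagtacagga
RBPJ, position 2743: tcagctgctTACATTTtttctttca

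Further genes of the pathway were taken from 8 lists written from general knowledge, but with earlier results of these data known. The lists held 83 genes, of which 74 were tested. With siL1, 26 rose and 17 fell (58.1% called, median log2 fold change -0.0035). With siL2, 17 rose and 21 fell (51.4% called, median -0.08). Between siL2 and siL1, 9 were higher and 27 lower with siL2 (48.6% called, median -0.12). Counted in either direction, these shares stand beside 50.4%, 45.8% and 46.8% of all genes. By direction, 35.1% of the pathway genes were higher and 23.0% lower with siL1, beside 24.7% and 25.7% of all genes, and 23.0% were higher and 28.4% lower with siL2, beside 22.6% and 23.3%. Between the siRNAs, 12.2% of the pathway genes were higher and 36.5% lower with siL2 than with siL1, beside 23.2% and 23.7% of all genes. The same shares of all genes stand beside the counts of each list below, which holds 5 to 15 tested genes.

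Of the other receptors and ligands, 6 of 9 were tested. With siL1, 4 rose and 0 fell (66.7% called), and with siL2, 2 rose and 0 fell (33.3% called). NOTCH4, a receptor best known from endothelium, averaged 2.17 ± 0.484 CPM with siL1 and 1.68 ± 0.208 CPM with siL2, against 0.895 ± 0.111 CPM with siControl (SD, n = 2 each). It rose by 1.27 on the log2 scale with siL1 (adjusted p = 0.00166) and by 0.89 with siL2 (adjusted p = 0.0195). The siL2 call ended without siControl replicate 1 (0.77, adjusted p = 0.107), without siControl replicate 2 (1.03, adjusted p = 0.0507) and without siL2 replicate 2 (0.76, adjusted p = 0.102), and with DESeq2 (0.91, adjusted p = 0.0985). The endothelial markers KDR and TIE1 rose in the same comparisons, and their part in the NOTCH4 value was not tested.

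MFAP2, a microfibril protein reported to bind Notch, rose by 0.80 with siL1 (adjusted p = 0.000732) and by 0.93 with siL2 (adjusted p = 0.00023). DNER, an atypical Notch ligand, rose by 0.69 with siL1 (adjusted p = 0.00252) and was lower with siL2 than in siL1 libraries (log2 difference -1.04, adjusted p = 0.000167). DLK2, another atypical ligand, rose by 0.37 with siL1 (adjusted p = 0.0121), a call that ended without siL1 replicate 1 (0.29, adjusted p = 0.0989). DLL4, the Delta ligand of vessels, had 12 and 13 counts with siL1 and 8 and 7 counts with siL2, against 7 and 10 counts with siControl. DLL3 and MFAP5 had at most 1 count in any library.

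Enzymes that act on the receptors and ligands changed in both directions. Of 9 genes of receptor cleavage, 3 rose and 2 fell with siL1 (55.6% called). With siL2, 3 rose and 1 fell (44.4% called). ADAM17, a sheddase, rose by 0.39 with siL1 (adjusted p = 5.46e-05) and by 0.24 with siL2 (adjusted p = 0.00237). Of the gamma-secretase subunits, APH1B rose by 0.43 with siL1 and by 0.66 with siL2, and APH1A rose by 0.21 with siL2. Nicastrin (NCSTN) fell by 0.33 on the log2 scale in siL1 libraries. PSEN2, a further subunit, was lower with both siRNAs. Its log2 fold change was -0.35 with siL1 (adjusted p = 0.00558) and -0.47 with siL2 (adjusted p = 0.000794).

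Of 7 genes of receptor glycosylation, 3 rose and 1 fell with siL1 (57.1% called). With siL2, 2 rose and 3 fell (71.4% called). The xylosyltransferase GXYLT1, which extends sugars on Notch EGF repeats, had the largest rise with siL2 among the named pathway genes. It averaged 66.7 ± 3.38 CPM with siL1 and 61.7 ± 1.60 CPM with siL2, against 27.1 ± 0.301 CPM with siControl (SD, n = 2 each), with log2 fold changes of 1.304 (adjusted p = 7.73e-09) and 1.18 (adjusted p = 1.68e-08). The fringe LFNG, which tunes the response of Notch to its ligands, rose by 1.45 with siL1 (adjusted p = 9.5e-06) and by 0.68 with siL2 (adjusted p = 0.00596). The siL2 call for LFNG did not pass without siControl replicate 1 (0.56, adjusted p = 0.054). The fucosyltransferase POFUT1 fell by 0.19 on the log2 scale in siL1 libraries (adjusted p = 0.000938) and by 0.16 with siL2 (adjusted p = 0.00456; 0.0524 without siL2 replicate 1). XXYLT1 fell by 0.55 on the log2 scale with siL2.

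Of 14 tested genes of endocytosis and turnover, 5 rose and 4 fell with siL1 (64.3% called). With siL2, 3 rose and 2 fell (35.7% called). MIB1, the ubiquitin ligase that lets ligands be taken up and so pull on Notch, averaged 157 ± 1.39 CPM with siL1 and 123 ± 0.0156 CPM with siL2, against 82.8 ± 2.96 CPM with siControl (SD, n = 2 each). It rose by 0.93 with siL1 (adjusted p = 6.78e-09) and by 0.57 with siL2 (adjusted p = 5.41e-07), and was lower with siL2 than in siL1 libraries (log2 difference -0.36, adjusted p = 2.05e-05). FBXW7, whose ubiquitin ligase degrades the Notch intracellular part, fell by 0.61 on the log2 scale in siL1 libraries (adjusted p = 0.000463). Of the Notch inhibitors of the Numb family, NUMBL rose by 0.35 with siL1 and NUMB rose by 0.24 with siL2.

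**Figure D4:**
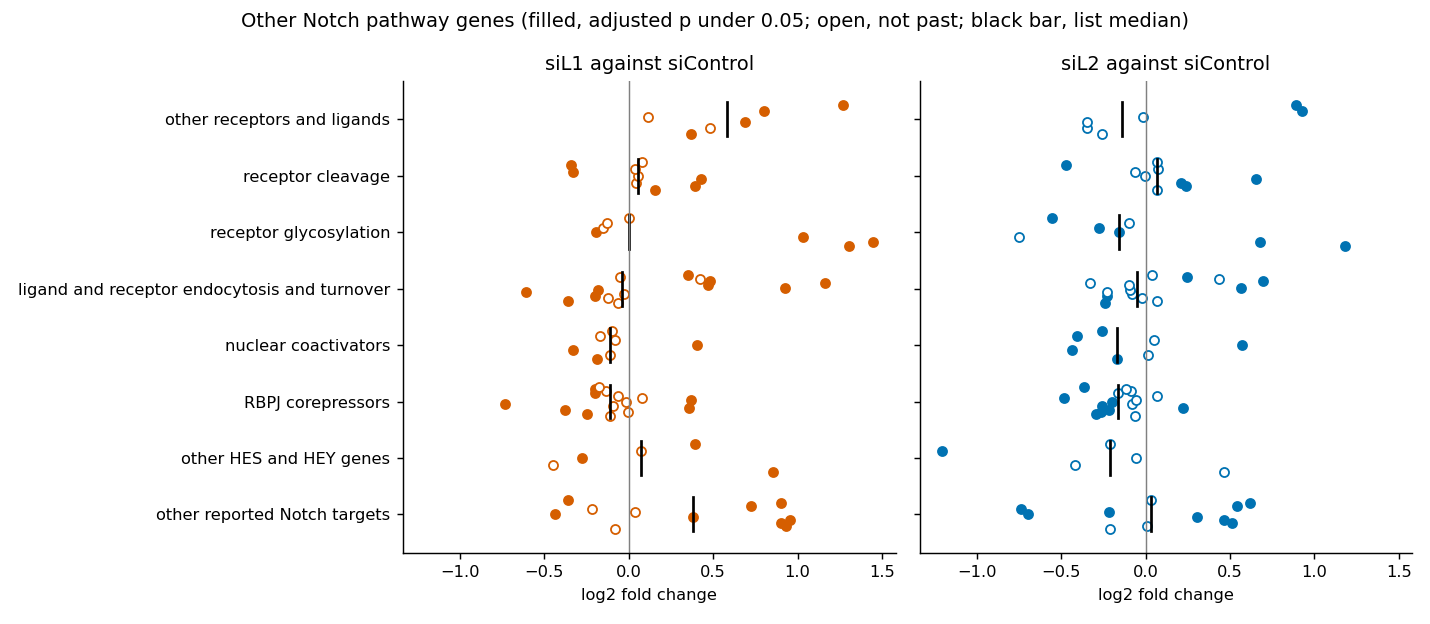
Log2 fold change of 74 tested pathway genes in 8 lists, siL1 against siControl on the left and siL2 against siControl on the right; points are genes, filled where the adjusted p is under 0.05, and black bars are list medians. Filled points lie on both sides of 0 in most lists, and LFNG at 1.45 is the farthest to the right with siL1.

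Of 7 nuclear coactivators, 1 rose and 2 fell with siL1 (42.9% called). With siL2, 1 rose and 4 fell (71.4% called). The acetylase KAT2B rose by 0.40 with siL1 (adjusted p = 9.63e-05) and by 0.57 with siL2 (adjusted p = 5.26e-06), whereas its paralogue KAT2A fell by 0.33 on the log2 scale in siL1 libraries (adjusted p = 6.25e-05) and by 0.44 with siL2 (adjusted p = 7.15e-06). CREBBP fell by 0.19 on the log2 scale in siL1 libraries (adjusted p = 0.00249) and by 0.17 with siL2 (adjusted p = 0.00634; 0.0565 without siControl replicate 1). MAML1, the more abundant Mastermind-like gene, averaged 140 ± 7.31 CPM with siL1 and 155 ± 4.19 CPM with siL2, against 149 ± 4.77 CPM with siControl (SD, n = 2 each), and passed against the control with neither. MAML3 averaged 4.96 ± 0.137 CPM with siL1 and 4.24 ± 0.0833 CPM with siL2, against 5.62 ± 0.770 CPM with siControl (SD, n = 2 each). It fell by 0.41 on the log2 scale with siL2 (adjusted p = 0.0383), which did not pass with DESeq2 (adjusted p = 0.189) or without siControl replicate 1, siL2 replicate 1 or siL2 replicate 2, at adjusted p from 0.0868 to 0.274. SNW1, a coregulator of RBPJ, fell by 0.26 on the log2 scale with siL2, and EP300 passed with neither siRNA.

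Of 15 RBPJ corepressor genes, 2 rose and 5 fell with siL1 (46.7% called). With siL2, 1 rose and 7 fell (53.3% called). The deacetylase HDAC1 rose by 0.36 with siL1 (adjusted p = 2.45e-05) and by 0.22 with siL2 (adjusted p = 0.00124). RCOR1, the CoREST scaffold that binds LSD1, averaged 169 ± 1.59 CPM with siL1 and 115 ± 5.29 CPM with siL2, against 161 ± 0.593 CPM with siControl (SD, n = 2 each). It fell by 0.49 on the log2 scale with siL2 (adjusted p = 1.59e-06), and CTBP1 fell by 0.26 with siL2 (adjusted p = 0.000141).

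Of the other HES and HEY genes, 5 of 8 were tested. With siL1, 2 rose and 1 fell (60% called), and with siL2, 0 rose and 1 fell (20% called). HES7, known as an oscillating gene of the vertebrate segmentation clock, had 169 and 124 counts with siL1 and 77 and 53 counts with siL2, against 152 and 113 counts with siControl. It fell by 1.21 on the log2 scale with siL2 (adjusted p = 0.000965), and both siL2 libraries were below the other 4. With siL1, HES2 rose by 0.85 (adjusted p = 0.0162), HEYL by 0.39 (adjusted p = 0.0457) and HES6 fell by 0.28 on the log2 scale (adjusted p = 0.0346). The HEYL and HES6 calls ended when any one of the siL1 and siControl libraries was left out, at adjusted p from 0.0607 to 0.215 for HEYL and from 0.0594 to 0.158 for HES6. The HES2 call ended without siControl replicate 1 (adjusted p = 0.123), siL1 replicate 1 (0.0562) or siL1 replicate 2 (0.0632). All 3 calls ended with DESeq2, at adjusted p of 0.136 for HES2, 0.143 for HEYL and 0.145 for HES6. HES4 passed with neither siRNA. HEY2 had 0 to 14 counts per library, HES5 at most 1 and HES3 none.

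Of 11 tested further genes reported as Notch targets, 6 rose and 2 fell with siL1 (72.7% called). With siL2, 5 rose and 3 fell (72.7% called). The cyclin gene CCND1 averaged 1022 ± 62.3 CPM with siL1 and 542 ± 5.26 CPM with siL2, against 537 ± 8.33 CPM with siControl (SD, n = 2 each). It rose by 0.93 with siL1 (adjusted p = 4.75e-09) and was lower with siL2 than in siL1 libraries (log2 difference -0.92, adjusted p = 7.84e-09). The cyclin-dependent kinase inhibitor CDKN1A rose by 0.90 with siL1 and by 0.51 with siL2, and the urokinase gene PLAU by 0.72 and 0.54. MYC fell by 0.44 on the log2 scale in siL1 libraries (adjusted p = 6.1e-05) and by 0.70 with siL2 (adjusted p = 1.32e-06). These genes answer to many pathways besides Notch.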

How the data were processed

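The data are 6 RNA-seq libraries from MDA-MB231 cells. Per the submitters' processing notes, TopHat 1.3.3, HTSeq and DESeq were used with hg19; which annotation and strand setting were used is not given in the sources used here. Per the file headers the deposited table holds raw counts per gene symbol. Beside them stand the fold change the authors computed, a linear ratio to siControl, and its adjusted p-value from the authors.

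Counts were analysed with R 4.3.3 and edgeR 4.0.16: filterByExpr kept 13322 genes and left out 10046, with TMM scaling and a glmQLFit model of group alone fitted to all 6 libraries (3 residual degrees of freedom). glmQLFTest was two-sided, with Benjamini-Hochberg adjustment over all genes tested and a threshold of 0.05. The fit was tested on counts simulated from the kind of model it assumes, which can test the code and not the model. CPM is counts per 1000000 counts of the library total. SDs are over the 2 libraries of a group, and SEs and 95% intervals are of the log2 fold change. Limits from counts cover counting error only. DESeq2 1.42.0 and limma 3.58.1 were alternatives. Exon lengths and 3' UTRs are from GENCODE v29 and promoters from RefSeq, both on GRCh38, joined to the hg19 counts by symbol.

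The members and gene lists were chosen with earlier results of these data known. Named beside the members were KDM1A, up to 4 genes past the threshold per further list by smallest p against the control, and receptors, ligands, coactivators and HES or HEY genes with a count. PSEN2 was named in addition, as a further gamma-secretase subunit that passed. Some genes of these lists are not reported here.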

Additional observations from a re-analysis of the deposited data

Results flagged for a closer look

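The effects of siL1 and siL2 differed for 3 Notch genes by the test of siL2 against siL1 itself, and all 3 were lower with siL2; they are 33.3% of the 9 tested members, where 46.8% of all genes were called, and 23.7% of all genes were lower. RBPJ averaged 222 CPM with siL2 and 269 CPM with siL1, a log2 difference of -0.29 (adjusted p = 4.24e-05). NOTCH3 averaged 3.02 CPM with siL2 and 4.55 CPM with siL1, a log2 difference of -0.60 (adjusted p = 0.00687; 0.0765 with DESeq2). JAG2 averaged 6.20 CPM with siL2 and 9.04 CPM with siL1, a log2 difference of -0.54 (adjusted p = 0.0182; 0.172 without siL1 replicate 1 and 0.155 without siL2 replicate 2). KDM1A itself was lower with siL2 than with siL1 (17.8 against 27.9 CPM). The part of the depth of knockdown in these differences was not tested.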

How the results depend on the processing

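The counts of Notch members past the threshold stayed within 1.5 times under all 14 alternatives: 5 to 6 with siL1, 2 to 3 with siL2 and 2 to 4 between siL2 and siL1. Over the same alternatives the counts of all genes called ran from 5228 to 8036 with siL1, 4737 to 7610 with siL2 and 4733 to 7700 between siL2 and siL1. The rises of NOTCH2, NOTCH3, JAG2, RBPJ and MAML2 with siL1 and of NOTCH2 and MAML2 with siL2 kept direction and call under all 14. Of 378 member values under alternatives, 347 kept both, 5 lost the call, 9 gained it and 17 turned sign; the cause was not tested. Those that turned sign passed in neither setting. Leaving out single libraries, log2 fold changes ran from -0.30 to 0.029 for NOTCH1, -0.048 to 0.093 for JAG1 and -0.093 to 0.27 for HES1 with siL1. With siL2 they ran from -0.011 to 0.49 for JAG2, -0.11 to 0.25 for HES1 and -0.22 to 0.38 for HEY1. Between siL2 and siL1 they ran from -0.044 to 0.070 for NOTCH2, -0.33 to 0.26 for HEY1 and -0.11 to 0.028 for MAML2. The HEY1 difference between siL2 and siL1 was -0.000591 with upper quartile scaling, -0.00605 with DESeq2, -0.028 with limma-voom and -0.00592 with the replicate block. Of 1008 values of other pathway genes named with a call, 44 lost it and none turned sign. These genes were named after seeing the data and entered only where they passed in the main fit. Their calls could therefore be lost but not gained. PSEN2 was not among them.

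The replicate numbers recur in each group, but no label ties them, and with 2 per group the correlations of the deviations (0.133 to 0.198) could not settle the pairing. With the replicate block, 6 members passed with siL1, 3 with siL2 and 4 between siL2 and siL1, while the counts of all genes called were 8036, 7610 and 7700, against 6712, 6106 and 6240 without it. NOTCH1 passed with siL1 (-0.13, adjusted p = 0.0185) and between siL2 and siL1 (-0.21, adjusted p = 0.000366). At this depth DLL1 could not be tested.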
